A study of Mus musculus with 6 samples.

Results

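The primary cilium is an antenna-like projection of the cell surface that is built on a basal body. The genes described here encode the machinery that carries proteins along it and the gate at its base. They were taken by name from the table of all genes: 46 genes were listed, all 46 were found among the 52550 genes measured, and all 46 passed the filter on low values that left 22452 genes for testing. By role, 11 encode subunits of the intraflagellar transport complex IFT-B, 6 of the complex IFT-A, 4 of the transport motors, 7 of the BBSome, 2 are BBS genes related to chaperonins, 13 act at the transition zone and 3 are other ciliary genes. RNA had been sequenced from GFP-positive cells of CD-1 mouse embryos carrying Sox9-GFP, a transgene that marks cells with the transcription factor SOX9. For each of the stages E16.5 and E18.5 there were 3 libraries, made from 15 pooled livers apiece, and both stages carried the same transgene, with no treatment named. The sample labels give the stages as embryonic days 16 and 18, and the names E16.5 and E18.5 of the paper are used. Livers had been dissociated with collagenase IV and Dispase, haematopoietic cells were depleted on magnetic beads, and GFP-positive cells were sorted. The gate depended on GFP alone, so every cell with active SOX9 reporter could enter it. Nothing states that the 3 pools of a stage came from separate litters or days, so p-values measure the spread between these pools.

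Intraflagellar transport moves cargo in trains. IFT-B trains travel to the tip on the kinesin-2 motor, and IFT-A trains return to the base on the dynein-2 motor. The BBSome is an adaptor that carries membrane proteins on these trains, and the transition zone is a barrier that decides which proteins enter or leave. In bile ducts, cholangiocytes carry a primary cilium on the apical side that senses bile flow and composition, and inherited defects of these genes cause ciliopathies, many of which affect the bile ducts.

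Many ciliary genes carry an X-box in the promoter, the motif bound by the RFX transcription factors. The motif consists of the half-sites GTTNCC and GGNAAC with 2 bases between them and reads the same on both strands. It was searched in the RefSeq promoters of GRCm38.p6, from 250 bases before to 50 after the start of each transcript, and mismatches were counted over its 10 fixed letters. Of the 46 genes, 41 had a promoter in this set, and 5 had none. With no mismatch, 3 of these 41 genes (7.32%) held the motif, against 143 of 27025 genes (0.529%). With up to 1 mismatch there were 13 (31.7%) against 782 (2.89%), and with up to 2 mismatches 19 (46.3%) against 4272 (15.8%). The share of genes with a close match was thus higher among the cilium genes at each setting, given here as a description. Windows of the 3 exact matches (Bbs7, Mks1, Tctn1) and of the 5 genes with 1 mismatch whose change of level was called under 2 scalings (below) are shown with the motif in capitals and up to 8 flanking bases, 5′ to 3′ on the strand of the gene:
Bbs7, chr3:36613489-36613518, minus strand: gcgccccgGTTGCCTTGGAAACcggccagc
Mks1, chr11:87853183-87853212, plus strand: gcgtctccGTTGCCAGGGGAACgaggcacc
Tctn1, chr5:122264411-122264432, minus strand: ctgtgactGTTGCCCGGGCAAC
Bbs1, chr19:4906605-4906634, minus strand: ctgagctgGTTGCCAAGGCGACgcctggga
Ift57, chr16:49699199-49699228, plus strand: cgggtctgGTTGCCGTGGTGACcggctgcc
Nphp4, chr4:152477903-152477932, plus strand: cggtgcccGTCTCCTAGGTAACgcgccagc
Tctn2, chr5:124598679-124598708, plus strand: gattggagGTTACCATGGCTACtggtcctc
Tmem231, chr8:111933781-111933810, minus strand: cgccgtcgGTTGCCGTGGAGACtcggcgct

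Matches with up to 1 mismatch were found in 8 of 12 transition zone genes with a promoter, in 3 of 7 BBSome genes and in 2 of 9 IFT-B genes. There were 0 in the 5 IFT-A genes, the 3 motor genes, the 2 chaperonin-like BBS genes and the 3 other ciliary genes that had a promoter. Of the 13 matches, 7 began before the start site and 6 after it, and 10 lay within 65 bases of it. Their positions ran from -231 to 37, counted with the start at 1 and no position 0. A match of letters does not show that a factor binds there, and the absence of one concerns only this window. The start sites are those of RefSeq transcripts. For some genes, such as Nphp4 and Dync2h1, they lie away from the gene start in the GENCODE annotation.

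**Figure D1:**
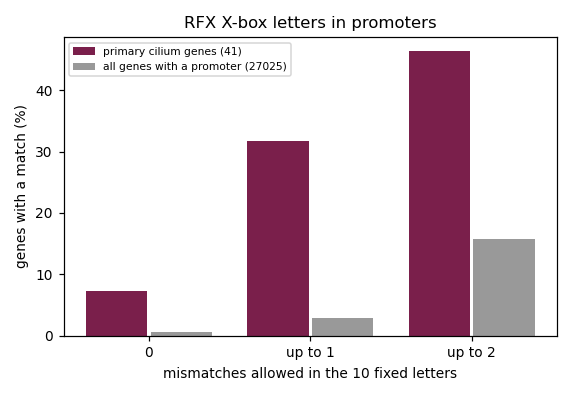
Share of genes, in percent, whose RefSeq promoter holds the X-box letters with 0, up to 1 or up to 2 mismatches. Dark bars show the 41 primary cilium genes with a promoter (7.32%, 31.7% and 46.3%), and grey bars all 27025 genes with a promoter (0.529%, 2.89% and 15.8%).

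The deposited values are TPM, a measure of transcript abundance scaled by gene length and by the total of the library, so that levels of different genes can be compared. Reads per library, recovered from the TPM, ranged from 13093937 to 26206374, and the 41 cilium genes with recovered reads had between 42 and 3378 reads per library. The cell type label was checked on marker genes. All 9 cholangiocyte markers had at least 1 TPM in every library, and their summed level was 976 to 2900 TPM at E16.5 and 8640 to 14800 TPM at E18.5. The 9 hepatoblast markers, genes of the liver parenchyma such as Alb, summed to 161000 to 202000 TPM at E16.5 and to 37000 to 86300 TPM at E18.5. In each of the 6 libraries the hepatoblast sum thus exceeded the cholangiocyte sum, so transcripts that mark hepatoblasts were abundant beside those of the labelled cholangiocytes. Most of the hepatoblast sum was Alb, with 118000 to 148000 TPM at E16.5 and 30000 to 70200 TPM at E18.5. Spp1 made up most of the cholangiocyte sum at E18.5, with 6630 to 12100 TPM.

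All 46 cilium genes had a signal in every library. At E16.5 their mean levels ranged from 1.37 TPM (Nphp4) to 40.2 TPM (Ift20), with a median of 8.20 TPM. At E18.5 they ranged from 4.56 TPM (Nphp4) to 60.3 TPM (Kif3a), with a median of 16.5 TPM. The order of the genes was similar at both stages (Spearman's rho 0.91 across the 46 genes, which share their libraries). Summed over the 46 genes, the E16.5 libraries had 577, 596 and 404 TPM (replicates A to C) and the E18.5 libraries 984, 1090 and 849 TPM. The sum was therefore higher in each of the later libraries. The 3 libraries of a stage spread more at E16.5, with a median coefficient of variation over the genes of 25.9%, than at E18.5, with 13.9%.

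**Figure D2:**
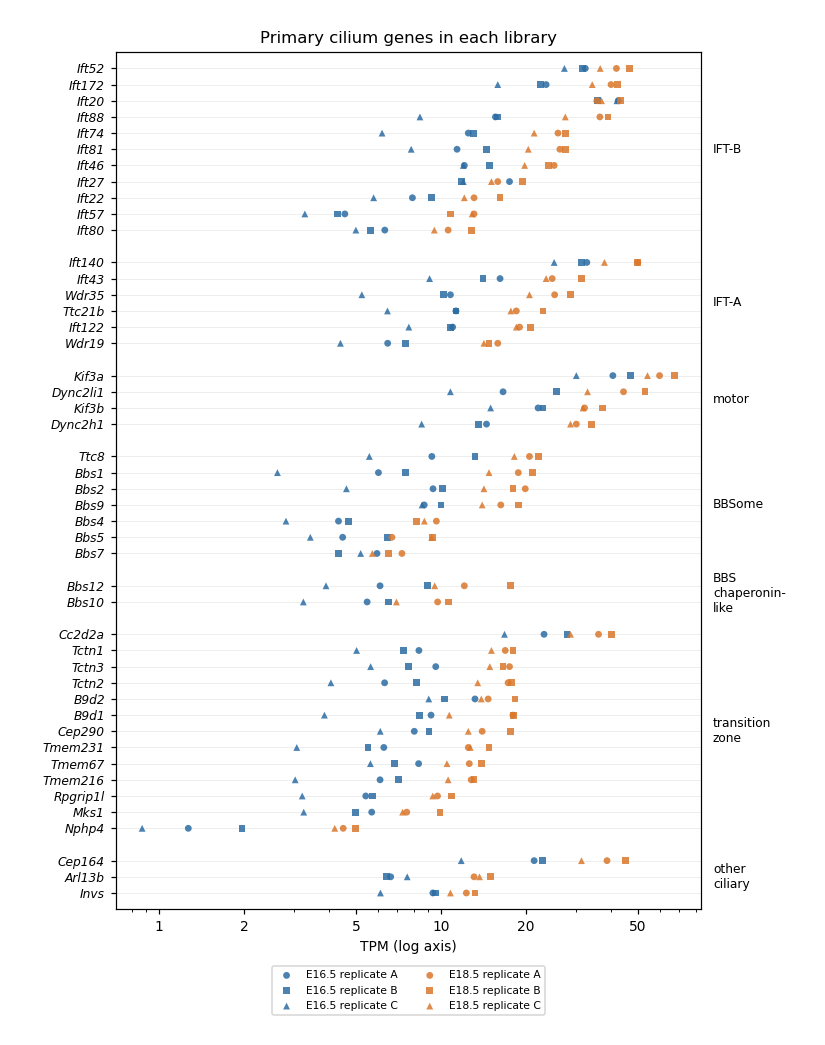
Level of each of the 46 genes in each library, in TPM on a log axis, grouped by role and sorted by the E18.5 mean. Blue marks are E16.5 and orange marks E18.5, with a circle, square and triangle for replicates A, B and C; the stages overlap for 3 genes, Ift20, Ift27 and Bbs7, and E16.5 replicate C is the lowest of the 6 libraries for 42 genes.

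The stages were compared on log2(TPM + 1) with limma over all 22452 genes, and p-values were adjusted by Benjamini-Hochberg over all of them. A gene was called at an adjusted p under 0.05. Fold changes are E18.5 minus E16.5 on this log2 scale, where the added 1 makes changes of low genes look smaller. Of the 46 cilium genes, 35 (76.1%) were called higher at E18.5, and 0 were called lower. Among all genes tested, 26.0% were called higher and 5.22% lower, and among the protein-coding genes 31.5% were called higher. The median log2 fold change of the cilium genes was 0.96, against 0.42 for all genes and 0.40 for protein-coding genes, and 43 of the 46 lay above the median of all genes. In 43 genes the stages did not overlap, with E18.5 higher, as in 45.0% of all genes. For a single gene, an exact two-sided permutation test of 3 libraries against 3 cannot give a p below 0.1. In cells sorted in bulk, more cells of a ciliated type and more RNA per cell cannot be told apart.

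The count depended on single libraries and on the scaling. Without E18.5 replicate A only 2 of the 46 genes were called, Ift57 and Dync2h1, while the median log2 fold change was 0.96 and 1148 genes were called in all, against 7000 with every library. Without E18.5 replicate B 5 genes were called, Arl13b, Dync2h1, Ift57, Tctn1 and Wdr19, with a median of 0.87. The TPM of most genes were higher at the later stage, as the median of 0.42 over all genes shows. Median-of-ratios scaling, which sets the libraries to a common typical gene, moved the median of all genes to 0.01. Under it the cilium genes had a median of 0.55, and 42 of 46 had a positive fold change. It called 13 of them higher and 1, Ift20, lower, against 6.44% of all genes called higher and 10.5% called lower. All 13 had been called with the TPM as deposited. They are Ift57, Ift88 and Ift172 of IFT-B, Ift122, Wdr19 and Wdr35 of IFT-A, the motor gene Dync2h1, the BBSome gene Bbs1, and Nphp4, Tmem231, Tctn1, Tctn2 and Tctn3 of the transition zone. Quantile normalization, another scaling, also called 12 of these 13 higher, all but Nphp4 (limma adjusted p = 0.0609).

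**Figure D3:**
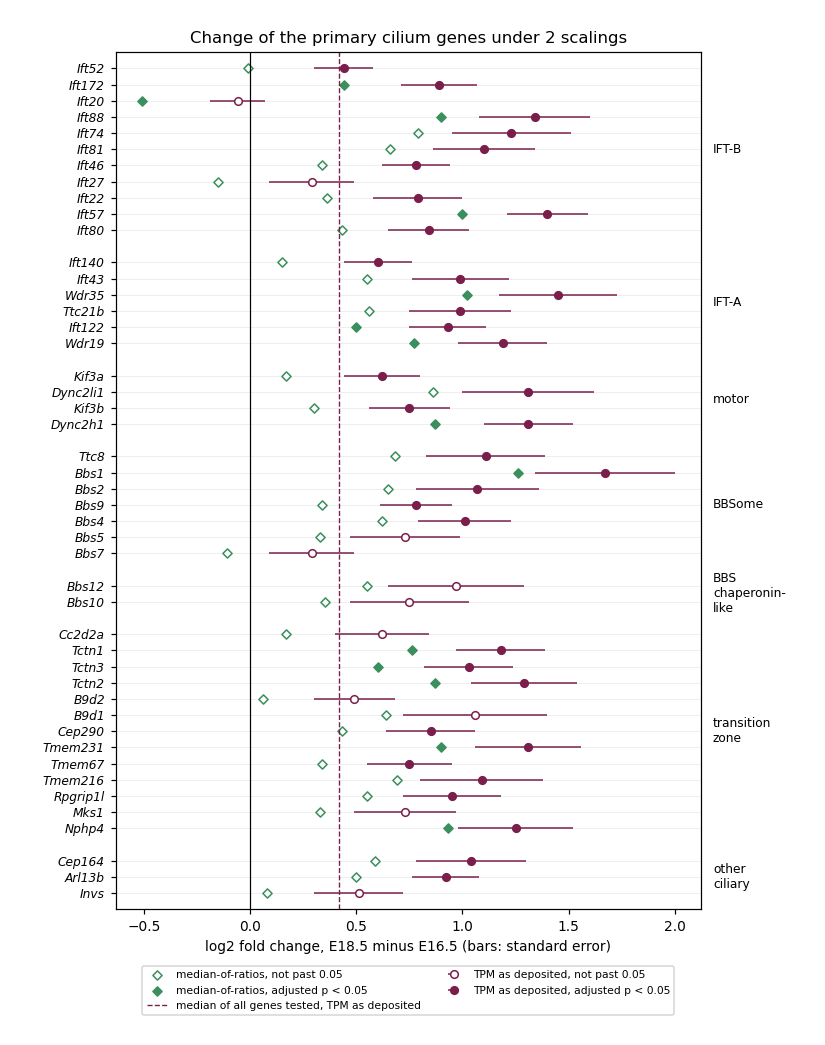
Log2 fold change of each gene, E18.5 minus E16.5, on the log2(TPM + 1) scale. Circles with bars (standard error) are the TPM as deposited and diamonds the median-of-ratios scaling, filled where the adjusted p in limma was under 0.05; 35 circles and 14 diamonds are filled, and the dashed line marks the median of all genes with the TPM as deposited, 0.42.

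Of the 11 IFT-B genes, which build the outward-bound trains, 9 were called higher, with a median log2 fold change of 0.84 and a range of -0.06 to 1.40. Ift57 (ENSMUSG00000032965.10, chromosome 16, 49699233 to 49765126), a peripheral IFT-B subunit, had the lowest level of this group at E16.5, with 4.56, 4.30 and 3.29 TPM (here and below in the order of replicates A to C). At E18.5 it had 13.1, 10.8 and 12.9 TPM. The stages were far apart and the libraries within each stage close together. The log2 fold change was 1.40 ± 0.19 (SE, limma adjusted p = 0.0089), and 1.0 after median-of-ratios scaling (adjusted p = 0.0177). Ift57 and Dync2h1 were the 2 genes called under all 16 alternative settings.

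Ift88, a core subunit without which cilia do not form, had 15.6, 15.9 and 8.42 TPM at E16.5 and 36.6, 39.1 and 27.6 TPM at E18.5. Replicate C was the lowest of its stage both times, yet the lowest E18.5 library was above the highest E16.5 library. The log2 fold change of Ift88 was 1.34 ± 0.26 (SE, limma adjusted p = 0.0152). Ift172, a peripheral subunit of the train, had 23.6, 22.6 and 15.9 TPM at E16.5 and 40.1, 42.3 and 34.4 TPM at E18.5. Here too the stages did not overlap, and the log2 fold change was 0.89 ± 0.18 (SE, limma adjusted p = 0.0159). Median-of-ratios scaling gave 0.90 for Ift88 and 0.44 for Ift172.

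Ift20 (ENSMUSG00000001105.15, chromosome 11, 78536361 to 78541737), a small subunit that also works at the Golgi apparatus, went apart from the rest. It had the highest mean level of the 46 genes at E16.5, with 42.5, 36 and 42.1 TPM, and 35.7, 43.2 and 37.1 TPM at E18.5. Its stages overlapped fully, with a log2 fold change of -0.06 ± 0.13 (SE, limma adjusted p = 0.760). After median-of-ratios scaling Ift20 fell by 0.51 (adjusted p = 0.0420), so its call depends on the scaling. Ift27, a small GTPase that links the trains to exit of the BBSome, also overlapped between stages, at 11.8 to 17.5 TPM and 15.1 to 19.5 TPM. Its log2 fold change was 0.29 with the TPM as deposited and -0.15 with median-of-ratios scaling, neither past the threshold. The other 6 IFT-B genes (Ift22, Ift46, Ift52, Ift74, Ift80 and Ift81) were called higher with log2 fold changes of 0.44 for Ift52 to 1.23 for Ift74. None of these 6 was called after median-of-ratios scaling, where Ift52 stood at -0.01.

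All 6 IFT-A genes, which serve the return trip and the entry of membrane proteins, were called higher, with a median log2 fold change of 0.99 and 3 of them called under both scalings. Wdr35 had the largest rise, from 10.8, 10.2 and 5.24 TPM at E16.5 to 25.3, 28.8 and 20.6 TPM at E18.5. The E16.5 libraries were unequal, replicate C being the lowest, but none came near an E18.5 library. For Wdr35 the log2 fold change was 1.45 ± 0.28 (SE, limma adjusted p = 0.0144). Wdr19, the lowest of the IFT-A genes, had 6.47, 7.5 and 4.4 TPM at E16.5 and 15.9, 14.8 and 14.2 TPM at E18.5. Its E18.5 libraries were nearly equal, and the log2 fold change was 1.19 ± 0.21 (SE, limma adjusted p = 0.0131).

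Ift122, a core subunit of IFT-A, had 11.0, 10.8 and 7.69 TPM at the first stage and 19.4 ± 1.21 TPM (mean and SD, n = 3) at the second, a log2 fold change of 0.93 ± 0.18 (SE, limma adjusted p = 0.0144). Ift140, also of the core, had the highest level of this group and its smallest rise. It had 32.9, 31.4 and 25.2 TPM at E16.5 and 49.9, 49.7 and 38 TPM at E18.5. Although the stages did not overlap, the log2 fold change of Ift140 was only 0.60 ± 0.16 (SE, limma adjusted p = 0.0334), and it was 0.15 after median-of-ratios scaling (adjusted p = 0.398). Ift43 and Ttc21b, the remaining members, each had a log2 fold change of 0.99.

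The 4 motor genes were all called higher with the TPM as deposited, and 1 of them, Dync2h1, under both scalings. Dync2h1 (ENSMUSG00000047193.16, chromosome 9, 6928503 to 7184446) encodes the heavy chain of dynein-2, the motor of the return trip. Its libraries had 14.5, 13.6 and 8.54 TPM at E16.5 and 30.2, 34.1 and 28.8 TPM at E18.5, so that the lowest E18.5 library was well above the highest E16.5 library. The log2 fold change was 1.31 ± 0.21 (SE, limma adjusted p = 0.0111), and 0.87 after median-of-ratios scaling (adjusted p = 0.0164). Dync2li1, the light intermediate chain of the same motor, had the same log2 fold change of 1.31, with a larger standard error of 0.31. Kif3a, a subunit of the outward motor kinesin-2, had the highest level of all 46 genes at E18.5, with 59.6, 67.4 and 54.0 TPM, against 40.7, 46.9 and 30.2 TPM at E16.5. Its log2 fold change was 0.62 ± 0.18 (SE, limma adjusted p = 0.0399), and 0.17 after median-of-ratios scaling (adjusted p = 0.381). Kif3b, its partner, had 0.75. Dync2h1 and Dync2li1 thus had larger fold changes than Kif3a and Kif3b in these libraries, a difference that was not tested. Other subunits of the motors, outside the 46 genes, did not keep this split. Kifap3 and Kif17 of kinesin-2 had 1.08 and 0.53, and Wdr34 and Wdr60 of dynein-2 had 0.78 and 0.94.

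Of the 7 BBSome genes, 5 were called higher, with a median log2 fold change of 1.01. Bbs1 (ENSMUSG00000006464.8, chromosome 19, 4886878 to 4906628), the subunit that binds the GTPase ARL6, had the largest fold change of the 46 genes. It had 6.0, 7.47 and 2.63 TPM at E16.5 and 18.8, 21.1 and 14.8 TPM at E18.5. The mean level was 3.4 times higher at E18.5, and the log2 fold change was 1.67 ± 0.33 (SE, limma adjusted p = 0.0156), or 1.26 after median-of-ratios scaling (adjusted p = 0.0339). Bbs1 was no longer called without E18.5 replicate A (adjusted p = 0.0612) or replicate B (0.0563) in limma. Ttc8, also named Bbs8, had 9.28, 13.2 and 5.57 TPM at E16.5 and 20.6, 22.1 and 18.2 TPM at E18.5. Its mean level was the highest of this group at both stages, though not its level in every E16.5 library. Its log2 fold change was 1.11 ± 0.28 (SE, limma adjusted p = 0.0276), and it was not called after median-of-ratios scaling (0.68, adjusted p = 0.0987).

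Bbs7 stood apart within the BBSome. Its levels of 5.93, 4.33 and 5.19 TPM at E16.5 overlapped with those of 7.27, 6.50 and 5.71 TPM at E18.5. The log2 fold change of 0.29 ± 0.20 (SE, limma adjusted p = 0.292) did not pass the threshold, and it was -0.11 after median-of-ratios scaling. Bbs7 is also 1 of the 3 genes with an exact X-box match, shown above. Bbs5, at 0.73, also missed the threshold, while Bbs2, Bbs4 and Bbs9 were called, with 1.07, 1.01 and 0.78.

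Bbs10 and Bbs12 help to assemble the BBSome and resemble chaperonins. Bbs12 had 6.08, 8.95 and 3.91 TPM at E16.5 and 12.1, 17.7 and 9.5 TPM at E18.5. Bbs10 had 5.47, 6.52 and 3.25 TPM at E16.5 and 9.73, 10.6 and 6.95 TPM at E18.5. Neither gene overlapped between the stages, and neither passed the threshold, with log2 fold changes of 0.97 ± 0.32 for Bbs12 (SE, limma adjusted p = 0.0582) and 0.75 ± 0.28 for Bbs10 (adjusted p = 0.0751). The E18.5 libraries of Bbs12 varied by 32.1% (coefficient of variation), the widest of the 46 genes at that stage.

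Of the 13 transition zone genes, 9 were called higher, with a median log2 fold change of 1.03, and the stages did not overlap in any of the 13. Over all genes tested, 26.0% were called higher, and 45.0% had stages that did not overlap, with E18.5 higher. The 3 tectonic genes, whose products sit in the gate complex with proteins mutated in Meckel and Joubert syndromes, were all called under both scalings. Tctn1 had 8.35, 7.34 and 5.02 TPM at E16.5 and 16.9, 18.0 and 15.1 TPM at E18.5. Tctn2 had 6.31, 8.18 and 4.07 TPM against 17.3, 17.8 and 13.5 TPM. Tctn3 had 9.58, 7.68 and 5.63 TPM against 17.5, 16.6 and 14.9 TPM. The 3 genes were at like levels at each stage and rose together, with log2 fold changes of 1.18 ± 0.21, 1.29 ± 0.25 and 1.03 ± 0.21 (SE, limma adjusted p = 0.0130, 0.0153 and 0.0163). For Tctn1, 25.47% of the exon sequence is shared with genes on the opposite strand (Hvcn1 and Gm15481), and whether reads were counted by strand is not given in the sources used here.

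Tmem231, a membrane protein of the same gate, had 6.27, 5.51 and 3.08 TPM at E16.5 and 12.5, 14.8 and 12.7 TPM at E18.5, with a log2 fold change of 1.31 ± 0.25 (SE, limma adjusted p = 0.0148). Nphp4, a nephronophthisis gene, was the lowest of the 46 genes at both stages. It had 1.27, 1.97 and 0.871 TPM at E16.5 and 4.50, 4.99 and 4.20 TPM at E18.5. The mean level was 3.32 times higher at E18.5, whereas the log2 fold change on the log2(TPM + 1) scale was 1.25 ± 0.27 (SE, limma adjusted p = 0.0181). Cc2d2a was the most abundant transition zone gene, with 23.2, 28.0 and 16.8 TPM at E16.5 and 36.2, 40.2 and 28.8 TPM at E18.5. The highest E16.5 library lay just under the lowest E18.5 library, and the log2 fold change of 0.62 ± 0.22 (SE, limma adjusted p = 0.0628) did not pass. B9d2 had the smallest change of this group, with 13.2, 10.3 and 9.05 TPM at E16.5 and 14.7, 18.3 and 13.9 TPM at E18.5 (log2 fold change 0.49, limma adjusted p = 0.0885). Its relative B9d1 and the Meckel gene Mks1 also missed the threshold, with 1.06 and 0.73. The remaining genes, Cep290, Rpgrip1l, Tmem67 and Tmem216, were called with log2 fold changes of 0.75 for Tmem67 to 1.09 for Tmem216, and 0 of these 4 was called after median-of-ratios scaling.

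Of the 3 other ciliary genes, Cep164 builds the appendages by which the basal body docks, Arl13b is a small GTPase of the ciliary membrane, and Invs marks a compartment beyond the transition zone. Cep164 had 21.4, 22.9 and 11.8 TPM at E16.5 and 38.8, 45.2 and 31.5 TPM at E18.5, a log2 fold change of 1.04 ± 0.26 (SE, limma adjusted p = 0.0278). Invs had 9.36, 9.59 and 6.10 TPM at E16.5 and 12.3, 13.2 and 10.8 TPM at E18.5. Its stages did not overlap, but the log2 fold change of 0.51 ± 0.21 (SE, limma adjusted p = 0.102) did not pass. Arl13b had the closest libraries of the 3 genes and a log2 fold change of 0.92 (limma adjusted p = 0.0123). None of the 3 was called after median-of-ratios scaling.

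The libraries of a stage kept much the same order across these genes. E16.5 replicate C was the lowest of the 6 libraries for 42 of the 46 genes, E18.5 replicate B the highest for 38, and E18.5 replicate C the lowest of its stage for 40. Without E16.5 replicate C the median log2 fold change was 0.75, and 29 genes were called. Within each library, the cilium genes were also ranked among the protein-coding genes, a measure that no scaling of the library changes. Their median percentile was 56.3, 58.3 and 54.1 at E16.5, and 64.2, 63.4 and 61.5 at E18.5. All 3 E18.5 libraries were above all 3 E16.5 libraries, which is given as a description.

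Markers of cholangiocytes, hepatoblasts and megakaryocytes moved with the stage, and the cholangiocyte and hepatoblast sums also with the same libraries. Of the 9 cholangiocyte markers, 8 were called higher, with a median log2 fold change of 1.51. Their sum was lowest in E16.5 replicate C (976 TPM) and highest in E18.5 replicate B (14800 TPM), as for the cilium genes. Most of the E18.5 sum was Spp1, and some markers, such as Krt7 and Krt19, were highest in another E18.5 library. Of the 9 hepatoblast markers, 6 were called lower, with a median of -1.33, and Alb was not called (-1.37, limma adjusted p = 0.146). The hepatoblast sum was highest in E16.5 replicate C (202000 TPM) and lowest in E18.5 replicate B (37000 TPM), the reverse order at both ends. Alb made up most of it, with 148000 and 30000 TPM in these libraries. Each of the 9 markers was lowest in E18.5 replicate B. All but Serpina1a, with 1410, 1280 and 971 TPM at E16.5, were highest in E16.5 replicate C. All 7 megakaryocyte markers, genes of platelet-forming cells, were called lower, with a median of -4.39 and sums of 3220 to 9340 TPM at E16.5 and 85 to 738 TPM at E18.5. Within E18.5 the megakaryocyte sum was highest in replicate B (738 TPM), unlike the hepatoblast sum. The part of these cell types in the higher levels of the cilium genes was not tested.

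**Figure D4:**
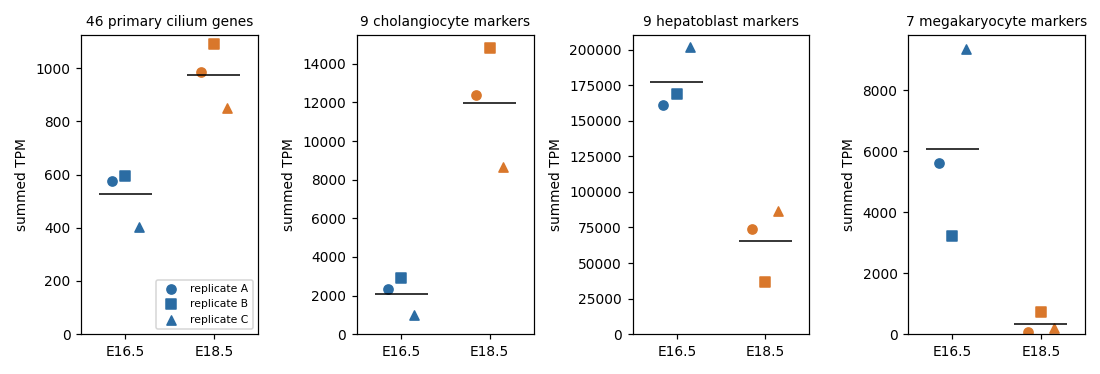
Summed TPM in each library of the 46 primary cilium genes and of the cholangiocyte, hepatoblast and megakaryocyte markers, with a circle, square and triangle for replicates A, B and C and a line at the mean of the 3 libraries of a stage. The cilium and cholangiocyte sums are higher in every E18.5 library, and the hepatoblast and megakaryocyte sums are lower. Most of the hepatoblast sum is Alb.

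The other marker lists had few calls. The 7 endothelial markers summed to 113 to 182 TPM at E16.5 and 101 to 198 TPM at E18.5, and 0 were called. Mesenchymal markers summed to 98.0 to 225 TPM and 205 to 619 TPM, with 1 of 7 called higher and a median log2 fold change of 1.02. Leukocyte markers summed to 72.4 to 124 TPM and 90.5 to 155 TPM, with 2 of 7 called higher. Erythroid markers summed to 212 to 285 TPM and 104 to 558 TPM, with 0 of 7 called. Pancreatic acinar markers reached 2380 TPM in E16.5 replicate A and 3.86 to 212 TPM in the other libraries, and 2 of the 5 tested were called lower, with a median log2 fold change of -2.18. None of the listed markers was at 0 in all 6 libraries. The 9 proliferation genes, of interest because cells take down the cilium to divide, summed to 446 to 574 TPM at E16.5 and 401 to 627 TPM at E18.5, and 0 were called in limma with the TPM as deposited, while median-of-ratios scaling called 6 lower.

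Beyond these 46 genes, 7 lists of other cilium genes were compared in the same fit. Of 76 listed genes, 73 were tested, of which 40 were called higher and 3 lower, with a median log2 fold change of 0.73. Among all genes tested, 26.0% were called higher and 5.22% lower. Median-of-ratios scaling called 16 higher and 6 lower, against 6.44% and 10.5% of all genes. The other subunits of IFT, BBSome and motors were nearest to the genes above, with 11 of 15 called higher and a median of 0.88, led by Ttc26 (1.43), an IFT-B subunit, and Arl6 (1.37), the GTPase that recruits the BBSome. Of 8 other transition zone genes, 2 (25.0%) were called higher, among them Iqcb1 (0.85), with a median of 0.63. That share was near the share of all genes, and median-of-ratios scaling called 0 of these 8. Of 10 basal body and appendage genes, 8 were called higher, with a median of 0.72, led by Sclt1 (1.15), of the distal appendages, and Cep97 (1.05), of the cap that is removed before a cilium grows.

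Genes for taking down the cilium were mostly not called. Of 7 such genes, 1 was called higher, Nedd9 (1.10), a scaffold that activates the kinase Aurora A, and the median was -0.13. Aurka, which encodes that kinase, had 44.1, 40.6 and 33.9 TPM at E16.5 and 30, 34.9 and 23.2 TPM at E18.5. These values overlapped and were not called with the TPM as deposited (-0.43, limma adjusted p = 0.107), whereas median-of-ratios scaling called Aurka, Plk1 and Kif2a lower.

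Among 11 proteins of the ciliary membrane, 6 were called higher, with a median of 0.67. The channel gene Trpv4 had 1.83, 1.23 and 0.584 TPM at E16.5 and 10, 11.5 and 10.9 TPM at E18.5, a log2 fold change of 2.45 ± 0.27 (SE, limma adjusted p = 0.00743). Pkhd1, mutated in recessive polycystic kidney and liver disease, had 90.6, 95.4 and 46.7 TPM at E16.5 and 258, 260 and 208 TPM at E18.5, a log2 fold change of 1.69. Of the transcription factors of ciliary genes, 7 of 8 tested were called higher, with a median of 0.82. The largest were Glis3 (2.59) and Glis2 (1.58), while the X-box factors Rfx2 and Rfx3 had 0.88 and 0.76, were called with the TPM as deposited and were not called after median-of-ratios scaling.

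Genes of motile cilia, which beat whereas primary cilia sense, were called in both directions. Of 16 listed, 14 were tested, 5 were called higher and 3 lower, with a median of 0.46, near that of all genes. Rsph4a (2.01) and Rsph9 (1.48) of the radial spoke were the largest rises. The axonemal dynein genes Dnaic1 and Dnah11 fell by 1.49 and 1.24, and Hydin, of the central apparatus, fell by 0.79. Of the other axonemal dynein genes listed, Dnah9 was called higher (1.27), and Dnah5 (0.81) and Dnaic2 (0.12) were not called. Mcidas and Gmnc, which start the programme of cells with many motile cilia, stayed at or under 0.247 TPM in every library and were not tested.

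**Figure D5:**
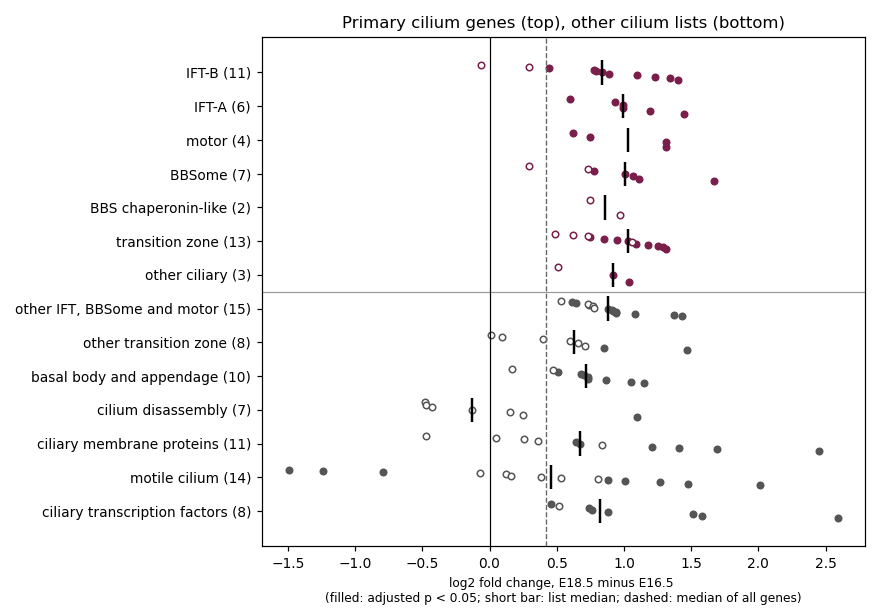
Log2 fold change, E18.5 minus E16.5, of each gene in the 7 role groups of the 46 primary cilium genes (top) and in 7 other cilium lists (bottom), with the number tested. Filled points had an adjusted p under 0.05 in limma, short bars are list medians, and the dashed line is the median of all genes, 0.42; medians run from 0.84 to 1.03 at the top and from -0.13 to 0.88 at the bottom.

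Genes with and without a close match to the X-box are set side by side here, with no test. Of the 13 genes with up to 1 mismatch, 9 were called higher, with a median log2 fold change of 1.09. Of the 28 genes with more mismatches, 21 were called higher, with a median of 0.90. Under median-of-ratios scaling 6 genes were called higher in either group. The exact matches had log2 fold changes of 0.29 (Bbs7), 0.73 (Mks1) and 1.18 (Tctn1), so that 1 of these 3 was called.

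The position of the genes was compared with that of other genes, with no test. In the GENCODE vM21 annotation of GRCm38, 12 of the 46 (26.1%) start within 1000 bp of a protein-coding gene on the other strand, against 10.8% of 22028 protein-coding genes. Ift20 and Tnfaip1 start 29 bp apart, Ift46 and Arcn1 63 bp, Dync2h1 and Dcun1d5 74 bp, and Ift122 and Mbd4 99 bp. Of the 46 genes, 37 share no exon sequence with a gene on the opposite strand, and Tctn1 was the only one to share more than 10% of it. The genes lie on many chromosomes, and their exon sequence ranges from 1454 to 16348 bp.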

How the data were processed

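RNA of sorted GFP-positive embryonic liver cells was measured in 6 libraries, prepared with a stranded total RNA kit. Per the labels and the methods of the study, the authors used FastQC 0.11.7, Trimmomatic, HISAT2 2.1.0 on GRCm38 and HTSeq 0.5.4p3 with GENCODE vM15 (the labels also name Bowtie), and deposited TPM for 52550 genes. Each column sums to 1000000, and all columns were mapped to a sample. Gene places came from GENCODE vM21, which holds 52403 of the identifiers, and promoters from RefSeq. TPM times exon length over the value of 1 read gave whole reads (within 0.01) for 100% of the values of genes with the same version, 49035 in number. These recovered reads served for depth and for 1 alternative.

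Stages were compared in limma 3.58.1 (R 4.3.3, lmFit, eBayes with trend) on log2(TPM + 1) in genes whose mean reached 1 TPM, adjusted by Benjamini-Hochberg over all of them. Other values were computed in Python 3.11.15. The steps were tested on simulated data. The simulated reads held no shift of all genes between the stages, so they do not address the choice of scaling. The genes and lists were chosen with earlier results of these data known, so counts and medians of lists are given without a test. Libraries are given one by one for the genes with the highest or lowest level and the largest or smallest change of each role group and for those called with median-of-ratios scaling; of other lists at most the 2 largest changes among the called genes follow that rule, and other genes were added after their values were seen. Some listed genes are not reported here by name.

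Alternatives were a pseudocount of 0.1, no filter, a filter at a mean of 5 TPM, median-of-ratios and quantile scaling, rescaling without haemoglobin, mitochondrial and small structural RNA genes, robust eBayes or eBayes with no trend, the replicate letters as a block, voom on recovered reads, and leaving out each library.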

Additional observations from a re-analysis of the deposited data

How the results depend on the processing

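The 35 cilium genes called higher became 13 with median-of-ratios scaling and 14 with quantile normalization, and ranged from 2 (without E18.5 replicate A) to 33 (without E16.5 replicate B) when 1 library was left out. The count called lower, 0, became 1 with median-of-ratios scaling. The median log2 fold change of 0.96 became 0.55 and 0.54 under these scalings and ranged from 0.75 to 1.05 without 1 library. Over all genes, 7000 calls became 4282 with no filter on low values, where 43310 genes were tested, 3795 with median-of-ratios scaling and 3796 with quantile normalization, and ranged from 1148 to 5432 without 1 library. The 40 genes of the other cilium lists called higher became 16 and 19 under these scalings and ranged from 6 to 33 without 1 library. Reversed were Bbs7 (-0.11 with median-of-ratios scaling, -0.16 with quantile normalization), Ift27 (-0.15 and -0.11) and Ift52 (-0.01 with median-of-ratios scaling). The cause was not tested.

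The other settings left between 25 and 39 of the 46 genes called, among them 29 of the 41 with recovered reads in voom. Over all genes tested, the replicate letters paired the libraries weakly at most. Same-letter deviations correlated at -0.042, 0.081 and 0.14 for A, B and C. Not every library correlated best with its own letter. Among the 46 cilium genes, replicate C was the lowest of its stage for 42 at E16.5 and for 40 at E18.5. Replicate B was the highest of its stage for 26 and 38. Whether the letters mark paired libraries was not tested. With the letters as a replicate block 39 cilium genes, 42 genes of the other lists and 7314 genes in all were called. Precision is limited by 3 libraries a stage and, for low genes such as Nphp4, by as few as 42 reads.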

Other observations

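Relative to Ift20 in the same library, a ratio that no scaling of the library changes, Ift88 stood at 0.367, 0.442 and 0.20 at E16.5 (replicates A to C) and at 1.03, 0.903 and 0.744 at E18.5. The ratio of Dync2h1 to Ift20 was 0.341, 0.378 and 0.203 at E16.5 and 0.847, 0.788 and 0.776 at E18.5. That of Bbs1 to Ift20 was 0.141, 0.207 and 0.0624 at E16.5 and 0.527, 0.487 and 0.399 at E18.5. The stages did not overlap in any of the 3 ratios. Ift20 had the lowest log2 fold change of the 46 genes (-0.06), and Bbs1 had the highest (1.67). Ift20 and the 3 genes set against it were chosen after their values were seen. The lack of overlap thus follows from that choice, and the ratios are given without a test.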
